A study of Aedes aegypti and Anopheles culicifacies with 47 samples.

Results

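In the olfactory tissue of female *Aedes aegypti*, 80 genes were taken that were low at 6pm and high at 6am. They were chosen from 19399 genes readable in all 16 *Aedes* libraries used here. Expression is given as CPM, counts per 1000000 reads assigned to genes in the library. A gene had to average at least 10 CPM over the olfactory libraries, which 6740 genes did, and all of its 6pm olfactory libraries had to lie below all of its 6am olfactory libraries. Of those 6740 genes, 303 (4.5%) met the second condition and 1581 (23.5%) met its opposite by plain CPM. This imbalance depended on the scaling of the libraries: after TMM scaling 796 met the second condition and 782 its opposite. Another 6 IDs were left out by the rule, of which 1 would have ranked among the 80. The remaining 302 genes were ranked by log2 of mean 6pm over mean 6am CPM, with 1 added to each mean, and the 80 lowest were kept. The 6pm against 6am values in olfactory tissue therefore chose the genes, and they are given below as a description.

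The mosquitoes were wild type (WT), 5 to 6 days old and reared with 12 h light and 12 h dark per day. RNA came from the brain or from olfactory tissue, a pool of antennae, maxillary palps, proboscis and labium, dissected at 4 clock times. The study set out to compare the daily rhythm of these tissues in a day-biting and a night-biting species. Olfactory libraries were replicates 1 and 3 for 6am, replicates 1 and 2 for 12pm, replicates 1, 2 and 3 for 6pm, and replicate 3 for 12am. Brain libraries were replicates 1 and 3 for each clock time except 12pm, which had replicates 1 and 2. Values of 1 clock time are printed in that order. The labels call the animals 1 cohort and the replicates biological, without saying which pools of animals they came from. In pooled tissue, fewer cells of a type and less RNA per cell cannot be told apart.

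As background, the insect circadian clock is a feedback loop in which activators switch on their own repressors, and it runs in peripheral organs as well as in the brain. Antennae of flies and mosquitoes hold such clocks, and transcripts of proteins around the odorant receptors are among those known to cycle there. A gene that follows the light and dark cycle is therefore read by its level at each clock time. The genes are given by ID: the table of names used here held none of these IDs, so no name or function is given for any of them, and neither tissue label was checked against marker genes.

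Olfactory libraries held 853349 to 6558092 reads assigned to genes, and brain libraries 5072614 to 10202123. The shallowest was the 6pm replicate 2 olfactory library, where 1 read is worth 1.17 CPM. Between 6pm and 6am the median of the 6740 genes lay 0.29 higher at 6pm on the log2 scale of plain CPM and 0.01 higher after TMM scaling, so the 80 genes lay further below the typical gene than their plain CPM ratios say. After TMM scaling, 64 of the 80 genes were still chosen.

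Single olfactory libraries stood at the ends of the range of these genes. The 6am replicate 1 library was the highest of the 8 olfactory libraries in 41 of the 80 genes (51.2%), against 7.77% of the 6740 genes. The 6pm replicate 1 library was the lowest in 37 of the 80 (46.2%), against 7.02%. The 12pm replicate 2 library was the highest in 26 (32.5%), against 13.4%. The first 2 of these shares come from libraries that the rule used. The choice rested on single libraries: with 1 library left out, the same rule kept 56 (6pm replicate 1), 37 (6pm replicate 2) or 56 (6pm replicate 3) of the 80 genes, and 34 (6am replicate 1) or 26 (6am replicate 3).

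**Figure D1:**
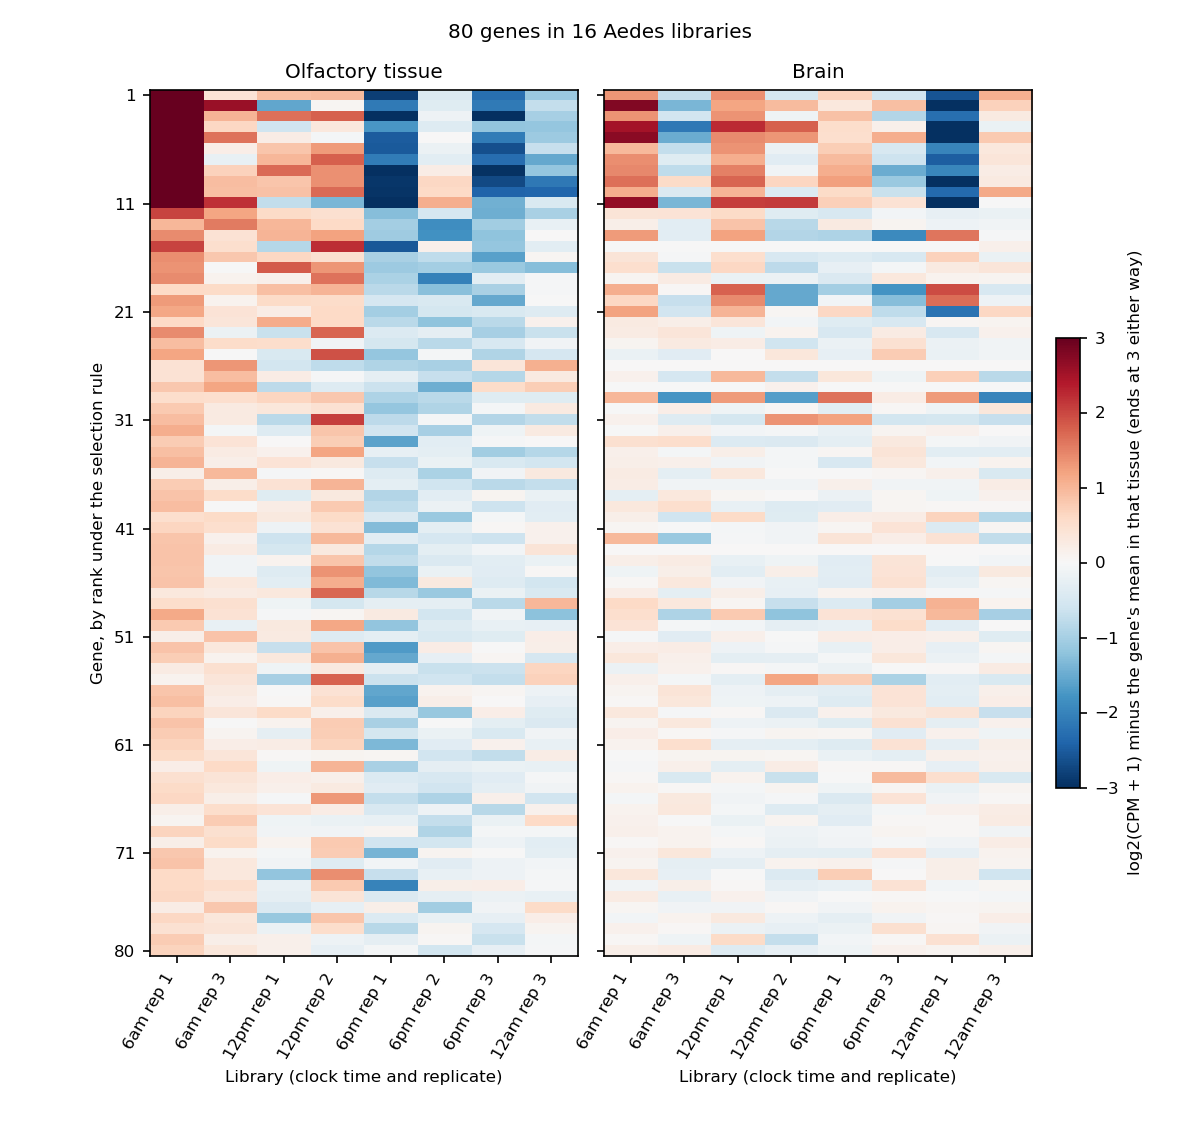
Each row is 1 of the 80 genes by rank, each column 1 library, and the colour is log2(CPM + 1) minus the gene's mean in that tissue. The first 11 rows are darkest at 6am replicate 1 in olfactory tissue and lowest at 12am replicate 1 in brain, while most other rows vary less in brain than in olfactory tissue.

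Ranked by the rule, the genes ran from -4.93 to -0.78 on the log2 scale of 6pm over 6am, with a median of -1.01. The 11 lowest, at -4.93 to -3.53, were separated from AAEL006451 in rank 12, at -2.68. At the other end, ranks 77 to 80 (AAEL015356, AAEL022334, AAEL014315 and AAEL008899) lay at -0.784, -0.781, -0.780 and -0.777. The genes just outside, AAEL019504, AAEL013045, AAEL001878 and AAEL002010 in ranks 81 to 84, lay at -0.768, -0.767, -0.745 and -0.744. The threshold of 80 thus fell in a run of nearly equal values. The olfactory mean of the 80 genes ran from the minimum of 10 CPM to 2747 CPM, with a median of 27.1 CPM, and their brain mean from 0 to 2415 CPM, with a median of 21.4 CPM. Groups within them, drawn after their values were seen, are described in turn, namely the 11 genes of the first ranks, a set of 5 genes past the fitted threshold, and 7 abundant genes.

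The 11 genes of the first ranks were AAEL020512, AAEL000533, AAEL007986, AAEL003601, AAEL000556, AAEL027936, AAEL002693, AAEL009081, AAEL007776, AAEL004585 and AAEL006485. Their summed level in olfactory tissue was 1450 and 204 CPM at 6am, 197 and 221 CPM at 12pm, 2.38, 103 and 8.54 CPM at 6pm, and 35.5 CPM at 12am. Replicates lay far apart at 6am and at 6pm and close together at 12pm. The sums rested on 4020 and 433 reads at 6am, 425 and 252 at 12pm, 8, 88 and 56 at 6pm, and 153 at 12am. Each of the 11 genes was more than 2 times as high in 6am replicate 1 as in 6am replicate 3, which 9.32% of the 6740 genes were, and 9 of the 11 were lowest in 6pm replicate 1. The ranking used the means of these libraries and so favours genes with 1 very high 6am library. Both counts are therefore a description.

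AAEL009081 was the most abundant of the 11 in olfactory tissue. It had 278 and 34.5 CPM at 6am, 70.1 and 55.3 CPM at 12pm, 0.891, 24.6 and 1.83 CPM at 6pm, and 8.82 CPM at 12am. AAEL020512, in rank 1, had 0.297, 5.86 and 0.915 CPM at 6pm, against 192 and 11.3 CPM at 6am. The nearest libraries of these groups, 5.86 and 11.3 CPM, were less than 2-fold apart, so the mean at 6am was set by replicate 1. AAEL000533, in rank 2, had 0, 2.34 and 0 CPM at 6pm, against 79 and 25 CPM at 6am, and it was already at 0.464 and 3.51 CPM at 12pm. AAEL006485, in rank 11, shared that early drop in its values, with 4.64 and 2.63 CPM at 12pm against 143 and 41.5 CPM at 6am, but it had 18.7 CPM in 6pm replicate 2. In AAEL003601 and AAEL000556 too, both 12pm libraries lay below both 6am libraries. Without 6am replicate 1, the rule kept 3 of these 11 genes, and without any other single 6am or 6pm library it kept all 11.

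The same 11 genes were more abundant in brain than in olfactory tissue by their means in 11 of 11 cases, against 60% of the 6740 genes. Whether RNA of other tissue contributed to their olfactory values was not tested. Their summed brain level was 3430 and 567 CPM at 6am, 2722 and 1446 CPM at 12pm, 1712 and 771 CPM at 6pm, and 143 and 1276 CPM at 12am. The 12am replicate 1 library was the lowest of the 8 brain libraries in all 11, which held for 8.57% of the 9578 genes tested in brain. AAEL009081 showed this pattern with 677 and 146 CPM at 6am, 707 and 230 CPM at 12pm, 530 and 87.8 CPM at 6pm, and 63.2 and 290 CPM at 12am in brain. AAEL000556 had 541 and 28.4 CPM at 6am, 220 and 207 CPM at 12pm, 116 and 174 CPM at 6pm, and 0 and 142 CPM at 12am. At 6am and at 12am the brain replicates of the summed level thus lay far apart, and at 12am the order of the replicates was the reverse of that at 6am and 6pm in the summed level. The mean at 6pm lay below that at 6am in 11 of 11 genes in brain, against 55.1% of the genes tested, with overlapping replicates in each. The 11 genes varied together over the brain libraries, with r of 0.912 to 0.968 to the sum they are part of. Both were taken as log2(CPM + 1), where values near 0 weigh heavily. The genes are therefore not 11 separate observations. They were not alike throughout: at 12pm in brain AAEL006485 had 403 and 406 CPM and AAEL007986 had 536 and 192 CPM. In the summed level 6am replicate 3 lay below both 6pm libraries, so the lower mean at 6pm rested on 6am replicate 1. None of the 11 passed the brain test or the tissue test described below.

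**Figure D2:**
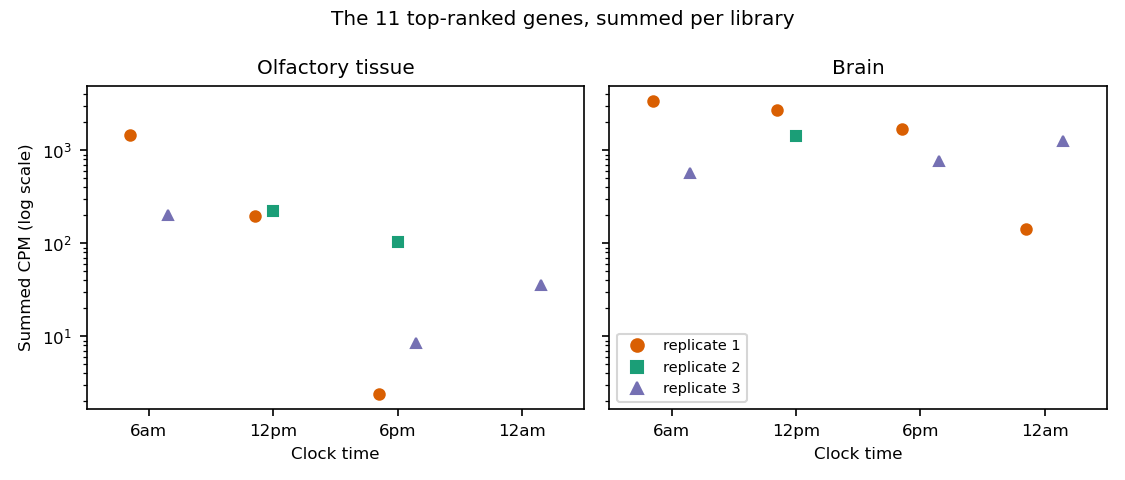
Summed CPM of the 11 top-ranked genes in each library, on a log axis, by clock time, with replicates told apart by colour and shape. Olfactory sums run from 2.38 CPM in 6pm replicate 1 to 1450 CPM in 6am replicate 1, and brain sums from 143 CPM in 12am replicate 1 to 3430 CPM in 6am replicate 1.

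Another set of genes had 6pm libraries that all lay far below those of 6am. In the edgeR quasi-likelihood fit of the olfactory libraries, 5 of the 80 genes passed an adjusted p of 0.05 between 6pm and 6am, each lower at 6pm, where 9 of 9948 genes did (0.0905%), 6 of them lower (0.0603%) and 3 higher (0.0302%). The choice of the genes used this contrast, so nothing is read from that count. With 1 library left out it was 0 (6pm replicate 1), 0 (6pm replicate 3), 1 (6am replicate 1), 15 (6am replicate 3), 1 (12pm replicate 1) or 2 (12pm replicate 2). These genes were AAEL006451, AAEL012425, AAEL022632, AAEL003211 and AAEL023223.

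AAEL006451 was the most abundant of the 5. Its level was 1569 and 872 CPM at 6am, 570 and 536 CPM at 12pm, 157, 273 and 138 CPM at 6pm, and 195 CPM at 12am. The 12pm libraries lay between those of 6am and 6pm, without overlap with either, and 12am lay within the range of 6pm. Its fitted change was -2.97 ± 0.43 (SE) on the log2 scale, 6pm minus 6am. AAEL003211 followed the same order to 6pm, with 646 and 424 CPM at 6am, 376 and 339 CPM at 12pm, and 124, 143 and 77.6 CPM at 6pm, but its 254 CPM at 12am lay above all 3 of its 6pm libraries. Its fitted change was -2.52 ± 0.37 (SE).

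AAEL022632 and AAEL012425 had 12pm libraries that overlapped those of 6am, and AAEL023223 had 12pm libraries above both of 6am. AAEL023223 had 87.0 and 85.4 CPM at 6am, 107 and 117 CPM at 12pm, 32.4, 23.4 and 28.7 CPM at 6pm, and 56.1 CPM at 12am. Its 6am libraries had a mean of 86.2 CPM with an SD of 1.07 CPM (n = 2). Its 6pm libraries had a mean of 28.2 CPM with an SD of 4.49 CPM (n = 3). AAEL022632 had 248 and 126 CPM at 6am, 188 and 214 CPM at 12pm, 43.4, 25.8 and 39.8 CPM at 6pm, and 93.7 CPM at 12am. AAEL012425 had 40.4 and 60.4 CPM at 6am, 40.9 and 30.7 CPM at 12pm, 9.21, 4.69 and 9.15 CPM at 6pm, and 16.9 CPM at 12am. In all 3 the 12am library lay above every 6pm library and below both 12pm libraries. The fitted changes, 6pm minus 6am, were -1.90 ± 0.28 for AAEL023223, -2.66 ± 0.36 for AAEL022632 and -2.92 ± 0.36 (SE) for AAEL012425.

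AAEL013077, the gene next in order of p, had the same shape, with 203 and 172 CPM at 6am, 290 and 204 CPM at 12pm, 75.1, 57.4 and 76.1 CPM at 6pm, and 146 CPM at 12am. It did not pass the adjusted threshold (adjusted p = 0.072 by edgeR).

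**Figure D3:**
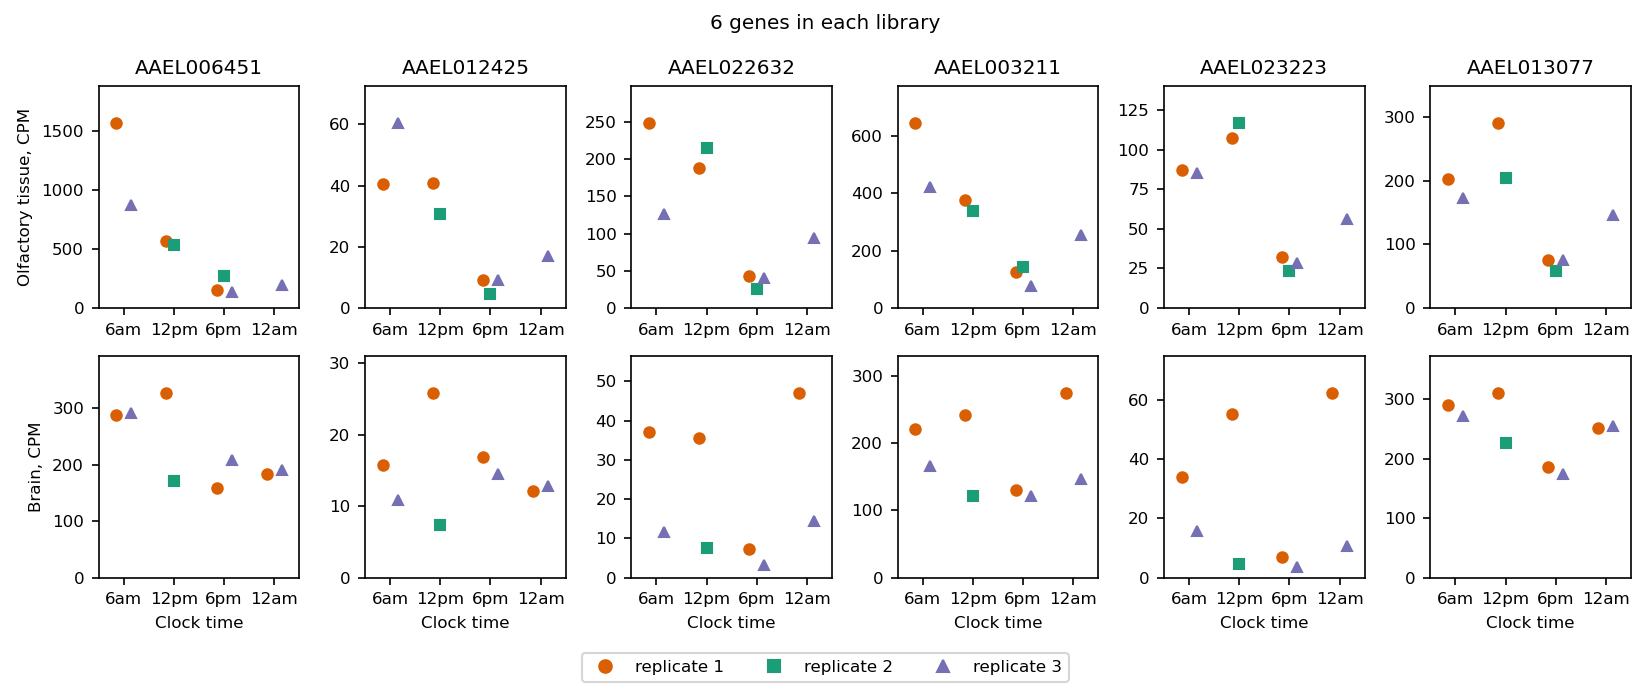
CPM of 6 genes in each olfactory library (top) and brain library (bottom) by clock time, with a separate axis from 0 for each panel. In olfactory tissue the 3 libraries at 6pm all lie below those at 6am and 12pm, and in brain AAEL013077 has 187 and 174 CPM at 6pm, against 289 and 272 CPM at 6am.

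The third group was 7 genes with an olfactory mean of 1000 CPM or more, AAEL011471, AAEL010756, AAEL006860, AAEL014583, AAEL001061, AAEL020238 and AAEL028043. Together they made up most of the summed level of the 80 genes, at 4296, 12397 and 11248 of 6696, 15246 and 13758 CPM at 6pm and 20605 and 13960 of 30025 and 19623 CPM at 6am. Their differences were smaller, between -1.11 and -0.79 on the log2 scale of 6pm over 6am, and the 6pm replicate 1 library was the lowest of the 8 olfactory libraries in 7 of 7. AAEL011471, the most abundant, had 859, 2710 and 2613 CPM at 6pm, against 4525 and 3065 CPM at 6am. Replicate 1 alone was far below at 6pm. AAEL014583 had 656, 2024 and 1254 CPM at 6pm, against 2995 and 2039 CPM at 6am, and its highest 6pm library was nearly level with its lowest 6am library. AAEL006860 had 895, 1738 and 1434 CPM at 6pm, against 3205 and 1752 CPM at 6am. AAEL010756 had 697, 1946 and 1824 CPM at 6pm, against 3204 and 1963 CPM at 6am. In these genes too, replicate 1 lay far below the other 6pm libraries, and the nearest libraries of 6pm and 6am were close. Without 6pm replicate 1 the rule kept 0 of the 7 genes, without 6am replicate 3 it also kept 0, and without 6am replicate 1 it kept 1.

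In brain, 6 of the 7 abundant genes were highest in 6pm replicate 3, and in the same 6 replicate 3 lay above replicate 1 at 6am, at 6pm and at 12am. AAEL011471 had 2510 and 3087 CPM at 6am, 2149 and 1978 CPM at 12pm, 1895 and 3137 CPM at 6pm, and 1945 and 2623 CPM at 12am. The exception was AAEL001061, which was low in brain, with 130 and 133 CPM at 6am, 69.4 and 68.3 CPM at 12pm, 75.4 and 114 CPM at 6pm, and 88.9 and 85.8 CPM at 12am. Its brain libraries at 6am lay above all of the other brain libraries.

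The clock times 12pm and 12am entered the rule only through the mean level. The rule bars 6pm from being the highest clock time and 6am from being the lowest, so the order of the 4 clock times is a description. The olfactory mean was highest at 6am in 53 of the 80 genes, at 12pm in 22 and at 12am in 5. It was lowest at 6pm in 57, at 12am in 18 and at 12pm in 5. The 12am library lay below both 12pm libraries in 47 genes (58.8%), against 27.9% of the 6740 genes. Both 12pm libraries lay above every 6pm library in 41 genes (51.2%), against 8.99% of the 6740 genes; the 6pm libraries in that count were those the rule had selected as low. The 12am library lay above every 6pm library in 36 genes (45%), against 20.1% of the 6740 genes, with the same 6pm libraries.

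The contrast of 12am with 12pm used no library that ranked the genes, and 12am had a single library, which was assumed to vary like those of other clock times. No gene of 9948 passed an adjusted p of 0.05 by edgeR (0%), including all 80, although 785 had an unadjusted p under 0.05 (7.89%). DESeq2 called 30 genes and 0 of the 80. Among the 80 genes, 15 (18.8%) had an unadjusted p under 0.05, 13 of them lower at 12am (16.2%, against 4.56% of all genes tested). The fitted change was below 0 in 69 of the 80 genes (86.2%), against 55.5% of all genes, with a median of -0.87 against -0.12. Without 12pm replicate 2, in which many of the 80 genes were highest, the median was -0.38 and 56 of the 80 lay below 0. The smallest p was that of AAEL015424, with 2.78 CPM at 12am, against 31.6 and 21.9 CPM at 12pm, a fitted change of -3.43 ± 0.78 (SE; adjusted p = 0.605 by edgeR). That gene also had 22.0 and 8.02 CPM at 6am and 3.27, 3.52 and 3.2 CPM at 6pm. Its mean was thus highest at 12pm, although 6am replicate 1 was level with 12pm replicate 2.

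AAEL002004 and AAEL002007 were higher at 12am than at 12pm. AAEL002004 had 23.1 and 43.9 CPM at 6am, 11.1 and 9.65 CPM at 12pm, 8.61, 8.20 and 22.0 CPM at 6pm, and 36.7 CPM at 12am. AAEL002007 had 43.7 and 56.6 CPM at 6am, 13.9 and 18.4 CPM at 12pm, 15.4, 8.20 and 36.6 CPM at 6pm, and 41.5 CPM at 12am. In both, the 12am library was close to those of 6am and the third 6pm library was well above the other 2. The fitted change of AAEL002004 at 12am against 12pm was 1.63 ± 0.62 (SE; adjusted p = 0.605 by edgeR). Their IDs differ by 3, and AAEL001991, 13 below AAEL002004, was likewise at or near 0 in brain. Whether these genes share reads was not tested.

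Brain libraries took no part in the choice and gave the same clock times in another tissue. Of the 80 genes, 69 were abundant enough in brain to be tested, and 0 passed an adjusted p of 0.05 between 6pm and 6am by edgeR, as did 0 of all 9578 genes (0%). At an unadjusted p under 0.05 there were 3 of the 69 (4.35%), all lower at 6pm, and 364 of all genes (3.8%), of which those lower at 6pm were 1.15% of the genes tested. DESeq2 called 20 genes, 0 of them among the 80. The mean at 6pm was below that at 6am in 49 of the 69 genes (71%), against 55.1% of all genes tested. Outside the 11 top-ranked genes this was 38 of 58 (65.5%). The fitted change was below 0 in 48 of the 69 (69.6%), against 49.8% of all genes, with a median of -0.11 on the log2 scale, against 0.001. This direction rested on replicate 1: leaving out brain 6pm replicate 1 gave a median of 0.02 with 33 of 70 genes below 0, and leaving out brain 6am replicate 1 gave -0.02 with 35 of 70 below 0.

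**Figure D4:**
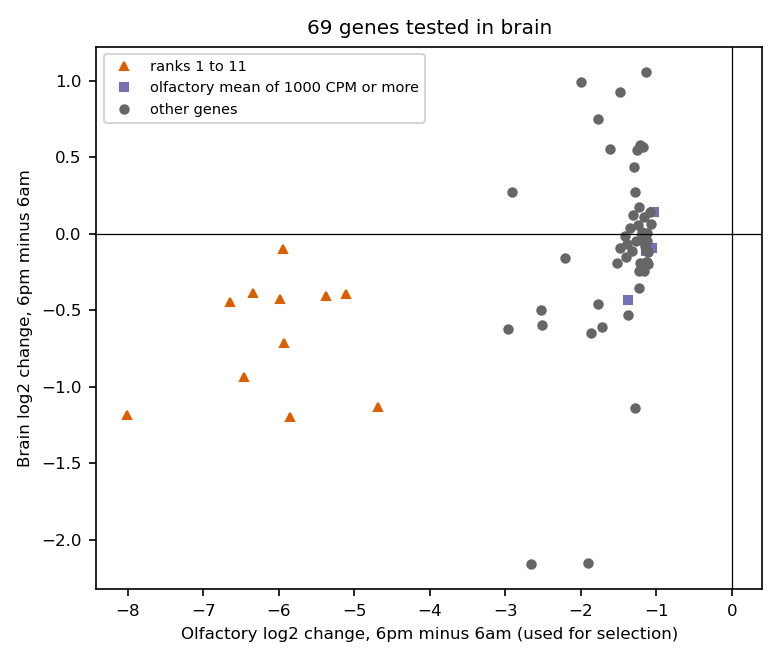
Fitted log2 change of the 69 genes tested in brain, 6pm minus 6am, in olfactory tissue (horizontal) and brain (vertical), each from its own edgeR fit. All points lie left of 0 because the genes were chosen so, the 11 top-ranked genes lie furthest left, and most brain values lie near 0.

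In 15 of the 69 genes both brain libraries at 6pm lay below both at 6am (21.7%), close to the 17.5% of all genes tested. The opposite held for 2 genes (2.9%), against 15.9%. Of the 5 genes past the olfactory threshold, 4 were among the 15. AAEL006451 had 159 and 209 CPM at 6pm, against 288 and 292 CPM at 6am, in brain, with a fitted change of -0.62 ± 0.32 (SE; adjusted p = 1.00 by edgeR). AAEL003211 had 130 and 121 CPM at 6pm, against 221 and 167 CPM at 6am. At 12pm both genes were uneven between brain replicates, with 328 and 171 CPM in AAEL006451 and 242 and 121 CPM in AAEL003211. At 12am AAEL006451 was even, with 184 and 191 CPM.

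AAEL022632 had 7.32 and 3.23 CPM at 6pm, against 37.1 and 11.6 CPM at 6am, in brain, a fitted change of -2.16 ± 1.01 (SE; adjusted p = 1.00 by edgeR). AAEL023223 had 7.12 and 3.72 CPM at 6pm, against 33.9 and 15.8 CPM at 6am, a fitted change of -2.15 ± 1.31 (SE; adjusted p = 1.00 by edgeR). In both genes replicate 1 was more than 2 times the other library at 6am, 12pm and 12am, with 35.6 and 7.55 CPM at 12pm and 47.1 and 14.4 CPM at 12am in AAEL022632. The 12am replicate 1 library was the highest brain library of AAEL022632, AAEL023223, AAEL003211 and AAEL000596, the same library that was lowest in the 11 top-ranked genes. AAEL000596 had 286 and 79.5 CPM at 12am in brain.

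The smallest p in brain was that of AAEL013077, at 187 and 174 CPM at 6pm, against 289 and 272 CPM at 6am. Its brain level was 311 and 226 CPM at 12pm and 251 and 255 CPM at 12am, so that 6pm was the lowest clock time without overlap. The fitted change was -0.61 ± 0.17 (SE; unadjusted p = 0.0108, adjusted p = 1.00 by edgeR), which did not pass. The remaining ones with an unadjusted p under 0.05 were AAEL019544 at -0.53 ± 0.19 and AAEL009593 at -1.14 ± 0.41 (SE). AAEL009593 had 34.3 and 22.0 CPM at 6pm, against 69.8 and 56.8 CPM at 6am, in brain. AAEL012425, the fifth gene past the olfactory threshold, had 17.0 and 14.6 CPM at 6pm, against 15.8 and 10.8 CPM at 6am, in brain.

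Between tissues at 12pm, 49 of the 80 genes passed an adjusted p of 0.05 with a log2 difference of at least 1, and all 49 were higher in olfactory tissue (61.2%). Across all 11442 genes tested 49.7% passed, 28.6% higher and 21.1% lower in olfactory tissue. The minimum olfactory level favours genes high in that tissue, and among the 6740 genes that met it 30.2% were higher and 25.2% lower. The median fitted difference over the 80 genes was 1.69, against 0.27 over all genes. DESeq2 called 54 of the 80 higher and 2 lower in olfactory tissue. The count higher was 38 without brain 12pm replicate 2 and 40 without olfactory 12pm replicate 2. Tissue and library batch cannot be told apart in this comparison.

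In 10 of the 80 genes (12.5%) every brain library was under 1 CPM, against 2.91% of the 6740 genes. The most abundant was AAEL012349, which had 385 and 254 CPM at 6am, 306 and 456 CPM at 12pm, 184, 148 and 127 CPM at 6pm, and 137 CPM at 12am in olfactory tissue. It had 1179 reads at 12pm in olfactory tissue and 0 in brain, which makes it at least 2079-fold higher in olfactory tissue with a floor of 3 reads over the brain group. Over all 8 brain libraries it had 6 reads. AAEL001991 and AAEL002004 had 0 reads in all brain libraries, and AAEL002007 had 1. AAEL001991 was at least 162-fold and AAEL002004 at least 61.7-fold higher in olfactory tissue at 12pm. AAEL027970 had 63 reads in olfactory tissue and 1 in brain at 12pm, a ratio of 333 (exact Poisson 95% interval 57.7 to 13371). AAEL010557 had 56 reads in olfactory tissue and 3 in brain, a ratio of 98.8 (32.1 to 493). These intervals and floors cover counting error only.

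Further genes with the smallest p between tissues had measurable brain levels. AAEL007947 had 148 and 144 CPM in olfactory tissue and 2.22 and 0.882 CPM in brain at 12pm, a difference of 7.14 ± 0.55 (SE; adjusted p = 9.14e-07 by edgeR). Its olfactory replicates were close at each clock time, with 97.4, 92.6 and 101 CPM at 6pm, against 181 and 169 CPM at 6am. AAEL026582 had 39.5 and 24.6 CPM in olfactory tissue and 2.35 and 1.96 CPM in brain, a difference of 4.46 ± 0.39 (SE; adjusted p = 2.13e-06 by edgeR). The abundant AAEL001061 had 1493 and 2477 CPM in olfactory tissue and 69.4 and 68.3 CPM in brain, a difference of 5.39 ± 0.55 (SE; adjusted p = 6.88e-06 by edgeR). Among the 31 genes that did not pass were the 11 of the first ranks, each with a higher mean in brain.

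**Figure D5:**
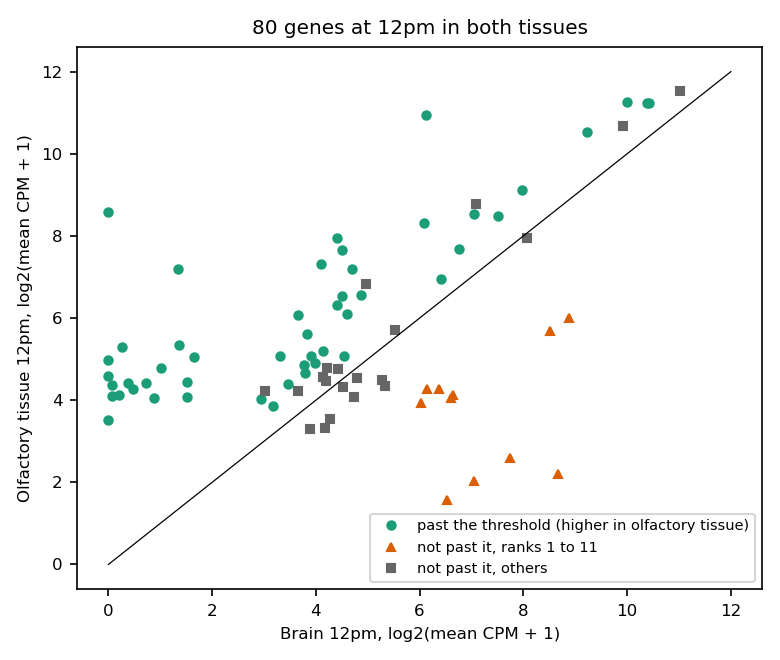
Mean level of the 80 genes at 12pm, as log2(mean CPM + 1), in olfactory tissue (vertical) and brain (horizontal), with the line of equal levels. The 49 genes past the threshold lie above the line, with AAEL012349 furthest to the upper left at 0 CPM in brain, and the 11 top-ranked genes lie below it.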

How the data were processed

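The authors deposited raw read counts per gene, 1 table per library, without a header. The submitters' processing notes name bcl2fastq, FastQC, STAR and HTSeq; versions, genome build and strand setting were not given in the sources used here. Of 24 *Aedes* samples listed, 16 were used here, with groups and replicate numbers taken from the sample titles. Reads not assigned to a gene (29.9 to 58.2% per library) were left out. They include reads aligned to several places. Reads that overlapped no gene were 11.9 to 34.7% per olfactory library and 17.4 to 21.9% per brain library. Damaged text in the tables (44 overwritten stretches, 74 damaged lines) was treated as missing, which removed 405 of 19804 IDs. The olfactory 6am replicate 1 library had the most damage, with 7 stretches and 14 lines. An altered digit can go unseen: 20 of the 80 genes, AAEL006451 and AAEL002004 among them, lie within 1024 bytes before a stretch in some table, and an alternative left such genes out.

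CPM was computed from plain totals. Counts were fitted in edgeR 4.0.16 (R 4.3.3; TMM, filterByExpr, robust quasi-likelihood F-test, prior count 0.125), 1 fit per tissue with a factor for clock time and 1 fit of all 16 libraries for the tissue contrast, with Benjamini-Hochberg adjustment over all genes tested and a threshold of 0.05. Each SE is the log2 change divided by the root of F and is approximate. P-values measure the spread between libraries, which may be technical. Alternatives were DESeq2 1.42.0, its size factors, other filters, a replicate block and leaving out each library. Genes with near-identical copies, overlapping or antisense genes are uncertain. The genes, lists and tests were chosen with earlier results of these data known. Named were the first 12 ranks, the 5 highest means, up to 6 genes past the threshold per contrast outside the rule and ranks 77 to 84; other genes were picked after their values were seen. Lists by function and cell type markers could not be applied, since 0 IDs matched the table of names.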

Additional observations from a re-analysis of the deposited data

Results flagged for a closer look

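Between 6pm and 6am, 2 of the 80 genes moved in opposite directions in the tissues without overlap of their libraries, and this difference was not tested. In brain, 6pm above 6am without overlap was rarer in the 69 genes tested (2.9%) than in all genes tested (15.9%). AAEL005312 had 17.2, 10.5 and 22.7 CPM at 6pm, against 33.9 and 35.9 CPM at 6am, in olfactory tissue. In brain it had 9.03 and 9.22 CPM at 6pm, against 8.92 and 4.73 CPM at 6am. Its log2 ratio of brain means, 6pm over 6am with 1 added to each, was 0.371. Its nearest brain libraries were 9.03 and 8.92 CPM. AAEL026582 had 26.4, 23.4 and 25 CPM at 6pm, against 36.8 and 59 CPM at 6am, in olfactory tissue. In brain it had 2.51 and 2.43 CPM at 6pm, against 1.94 and 1.38 CPM at 6am, a log2 ratio of means of 0.382. The olfactory direction was fixed by the choice of the genes. No clock time had 4 or more libraries in a tissue, so no single library was tested against its group.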

How the results depend on the processing

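Between 6pm and 6am in olfactory tissue, 9 genes passed, 5 of them among the 80. DESeq2 gave 27 and 12, no low-count filter 186 and 34, and the replicate block 35 and 14; leaving out 1 library gave 0 to 35 and 0 to 15. In brain the same contrast gave 0 genes, against 20 by DESeq2, and 0 of the 80 in every alternative, the replicate block included. Both brain libraries at 6pm lay below both at 6am in 15 of the 80 genes. All 15 were among the 69 tested (21.7%), against 17.5% of all genes tested. After TMM scaling the count was 11 of the 80, without a share over all genes. With 1 library left out the count was 22 to 39 of the 80, which fewer libraries make easier to reach. The share over all genes was not computed for those settings, so nothing is read from that range. The brain log2 change of AAEL002377 ran from -0.455 to 0.0248, above 0 only without 6pm replicate 1. Between 12am and 12pm, 0 genes passed, against 30 by DESeq2, 125 without a low-count filter (7 of the 80), 2 with the replicate block and 0 to 4 with 1 library left out. The block put 51 of the 80 genes below 0 at 12am against 12pm, with a median of -0.35 and 7 at an unadjusted p under 0.05, against 69, -0.87 and 15 without it. Between tissues, 3721 genes of 7364 with a mean of at least 50 counts passed, against 5691 of 11442. The rule kept 27 of the 80 genes at an olfactory mean of at least 50 CPM, 51 at 5 CPM, 73 with 5 added to each mean, 60 without genes near an overwritten stretch, and 26 to 56 with 1 library left out. Apart from the smaller number of genes or libraries that a filter or an omission leaves, the causes were not tested. Deviations of same-numbered libraries correlated across genes by 0.449 at brain 6am and 6pm, and by 0.171 and 0.160 at olfactory 6am and 6pm; only 2 numbers are shared there and the labels give them no meaning, so the samples were not treated as paired. Depth limits low values: the 11 top-ranked genes together had 8, 88 and 56 reads at 6pm.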

Other observations

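Genes with brain values like those of the 11 top-ranked genes were looked for after the data were seen. There were 6801 genes with a brain mean of at least 10 CPM. Over the 8 brain libraries, 17 of them had a Pearson r of at least 0.95 with the summed level of the 11. Both levels were taken as log2(CPM + 1). Of the 17, 5 were among the 11 and so part of that sum. The other 12 were lowest in brain 12am replicate 1, which the choice by r largely fixes. In olfactory tissue 6am replicate 1 was the highest library in all 12, against 7.77% of the 6740 genes. Only 5 of the 12 reached the olfactory mean of 10 CPM that those 6740 genes had, so some of these values rest on few reads. The choice by r did not use olfactory values, but the 11 genes of the sum were themselves all highest in that library. One of the 12, AAEL000886, was among the 80 genes, with 100 and 28.8 CPM at 6am, 87.8 and 45.2 CPM at 12pm, 67.1 and 25.1 CPM at 6pm, and 8.44 and 67.2 CPM at 12am in brain. AAEL006417, outside the 80, had 631 and 14.4 CPM at 6am and 0.117 and 78.0 CPM at 12am in brain.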
